A study of Mus musculus with 2 samples.

Results

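The NMDA receptor subunit genes of the mouse, Grin1, Grin2a, Grin2b, Grin2c, Grin2d, Grin3a and Grin3b, were taken by name from the GENCODE M21 annotation, and all 7 were found among its 21853 protein-coding genes. For each gene every DNase-seq peak in the gene body and 10 kb on each side was read in 2 libraries of hippocampus. DNase-seq sequences the ends that DNase I cuts, which lie mostly in DNA not packed into nucleosomes, so a peak marks accessible chromatin. The tissue came from females of B6CASTF1/J, the first-generation cross between C57BL/6J and CAST/EiJ, at an age of 2 months, and is called hippocampus in one label and a layer of it in another. The libraries, replicates 1 and 2 of a single group, carry separate tissue records but one donor record, so the spread between them may be technical. With 1 group of 2 libraries there was no comparison between conditions, no other age, and no test between libraries.

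NMDA receptors are glutamate-gated channels that pass calcium when glutamate arrives while the cell is depolarised, and they start the synaptic changes that underlie learning in the hippocampus. Each channel is an assembly of the obligatory subunit GluN1, from Grin1, which binds glycine, with GluN2 subunits, from Grin2a to Grin2d, which bind glutamate, or with GluN3 subunits, from Grin3a and Grin3b, which bind glycine. As textbook background, Grin2b, Grin2d and Grin3a are the juvenile subunits, expressed most before or soon after birth, and Grin2a, Grin2c and Grin3b rise later. Grin2a and Grin2b are the main GluN2 genes of hippocampal pyramidal cells, Grin2c is best known from cerebellar granule cells, Grin2d from interneurons and the early brainstem, and Grin3b from motor neurons.

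The replicates differed in how much was called. Replicate 1 had 129779 peaks and replicate 2 had 71895, and 46.6% and 83.4% of them overlapped a peak of the other library. Each peak carries a signal from the authors' lists, scaled to the library on a scale that is not stated, with medians of 0.699 and 0.867 over all peaks. Read depth is unknown. Both libraries had a promoter peak at 12 of 12 marker genes of hippocampal and forebrain excitatory neurons, beside 59.0% of all protein-coding genes. The counts were 2 of 7 for interneurons, 3 of 6 for astrocytes, 3 of 8 for oligodendrocytes and 1 of 2 for their precursors. They were 0 of 5 for microglia and 0 of 3 for endothelial cells. Replicate 1 alone had a promoter peak at 4 more oligodendrocyte, 3 microglia, 2 astrocyte, 1 interneuron and 1 endothelial markers. In bulk tissue, a peak in few cells and a weak peak in many cannot be told apart.

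The sequences below are the places on which the results turn: the promoter of Grin1 before its start, the peak shared by both libraries that had the highest mean value away from promoters at Grin2a (the 2 highest), Grin2b and Grin3a, the shared peak nearest to Grin2c, and the peak assigned to the Grin2d promoter. They are written along the gene's strand, the minus strand in each case, from RefSeq's GRCm38.p6 assembly. Capitals mark bases inside a deposited footprint of either library, a short stretch that was protected from cutting. Positions in the text count from 1 at the first base printed.
Grin1 promoter: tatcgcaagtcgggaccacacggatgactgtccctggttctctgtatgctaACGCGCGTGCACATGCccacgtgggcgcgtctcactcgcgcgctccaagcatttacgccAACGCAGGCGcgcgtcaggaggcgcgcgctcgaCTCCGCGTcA
Grin2a first intron 3 site: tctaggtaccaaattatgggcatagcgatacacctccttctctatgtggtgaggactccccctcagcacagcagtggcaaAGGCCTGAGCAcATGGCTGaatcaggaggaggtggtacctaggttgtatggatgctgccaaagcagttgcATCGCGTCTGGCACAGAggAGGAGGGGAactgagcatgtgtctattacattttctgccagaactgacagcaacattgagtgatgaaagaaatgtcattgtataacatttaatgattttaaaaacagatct
Grin2a second intron 3 site: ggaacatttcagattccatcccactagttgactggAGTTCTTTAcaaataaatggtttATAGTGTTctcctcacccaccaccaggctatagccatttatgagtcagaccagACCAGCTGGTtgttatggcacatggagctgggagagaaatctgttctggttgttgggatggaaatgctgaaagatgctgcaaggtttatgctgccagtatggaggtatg
Grin2b intron 4 site: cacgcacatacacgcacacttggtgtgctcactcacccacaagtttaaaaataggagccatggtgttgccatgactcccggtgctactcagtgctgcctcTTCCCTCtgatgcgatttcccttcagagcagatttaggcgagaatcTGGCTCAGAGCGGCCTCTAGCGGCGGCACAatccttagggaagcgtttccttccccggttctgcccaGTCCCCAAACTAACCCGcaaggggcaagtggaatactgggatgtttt
Grin2c upstream site: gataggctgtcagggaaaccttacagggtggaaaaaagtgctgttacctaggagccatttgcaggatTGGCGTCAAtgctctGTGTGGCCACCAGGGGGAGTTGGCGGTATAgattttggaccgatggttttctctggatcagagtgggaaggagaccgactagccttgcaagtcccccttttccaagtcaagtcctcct
Grin2d exon site: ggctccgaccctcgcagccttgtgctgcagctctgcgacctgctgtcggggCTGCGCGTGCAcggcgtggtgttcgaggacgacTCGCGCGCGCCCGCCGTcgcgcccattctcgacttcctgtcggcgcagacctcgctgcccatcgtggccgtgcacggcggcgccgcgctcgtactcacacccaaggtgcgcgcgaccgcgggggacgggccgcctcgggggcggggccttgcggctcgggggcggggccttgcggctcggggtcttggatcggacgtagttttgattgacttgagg
Grin3a intron 6 site: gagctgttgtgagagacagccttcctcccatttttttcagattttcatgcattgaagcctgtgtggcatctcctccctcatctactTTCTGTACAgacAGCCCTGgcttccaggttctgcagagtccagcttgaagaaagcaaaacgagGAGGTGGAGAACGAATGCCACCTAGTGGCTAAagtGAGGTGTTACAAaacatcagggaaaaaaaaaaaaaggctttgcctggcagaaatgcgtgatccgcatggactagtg

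In the same order these lie at chr2:25319188-25319340, chr16:9851641-9851920, chr16:9793061-9793280, chr6:135907601-135907860, chr11:115270581-115270780, chr7:45866001-45866300 and chr4:49688721-49688980. The Grin1 promoter had 23 CG pairs in 153 bases and a GC content of 64.7%, and the Grin2d site had 46 in 300 bases and 72.7%. The Grin2a sites had 3 CG pairs in 280 bases and 0 in 220. The Grin2b site lay between these, with 11 in 260 bases and a GC content of 54.2%.

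At their promoters, the 7 genes fell into 5 with a peak in both libraries and 2 with a peak in neither (a promoter peak overlaps the 1 kb on either side of a start of a protein-coding transcript). Among all protein-coding genes 59.0% showed one in both libraries, 63.4% in replicate 1 and 60.4% in replicate 2. With 7 genes, 5 is near that background. Grin1, Grin2a, Grin2b, Grin2d and Grin3a made up the 5, and Grin2c and Grin3b had none.

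Grin1, the obligatory subunit (chr2:25291181-25319187), had the highest promoter value of the family, 3.14 in replicate 1 and 2.78 in replicate 2, or 2.96 ± 0.257 (SD, n = 2). Among the promoters with a peak this stood at the 50.5th percentile in replicate 1 and the 50.1st in replicate 2, so the family's highest promoter was a middling one for this tissue. The peak covered the start of all 10 transcripts of the first start group. Replicate 1 had 4 footprints that reached the 153 bases shown and replicate 2 had 1, and only 1 base shown was in footprints of both. The pair that met there, of 7 bases in replicate 1 and 13 in replicate 2, ran on past the start, in bases not shown. Further past the start, the same peak held a footprint of 10 bases at the same coordinates in both libraries. The longest footprint in the bases shown, of 16 bases in replicate 1, covered positions 52 to 67.

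Grin2b, the main juvenile GluN2 subunit (chr6:135713233-136173511), had promoter values of 2.48 and 1.91, or 2.20 ± 0.407. Grin2a, its adult counterpart (chr16:9567898-9995560), had 2.36 and 2.00, or 2.18 ± 0.254. The difference between these means was smaller than the spread between the replicates of either gene. Grin3a, a glycine-binding subunit (chr4:49661611-49845744), had 2.01 and 1.88, or 1.94 ± 0.0915. These 3 genes and Grin2d were at the 25.9th to the 42.0th percentile of promoters with a peak in replicate 1 and at the 27.3rd to the 35.3rd in replicate 2.

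Grin2d (chr7:45831883-45878378) had the lowest value among promoters with a peak, 1.47 and 1.62, or 1.54 ± 0.108, and its place among them rests on the window. The peak lay 0.978 kb inside the gene from the nearest GENCODE start, over a coding exon. The same peak lay 421 bp in replicate 1 and 381 bp in replicate 2 from the start that RefSeq lists as curated. With a window of 500 bp Grin2d had no promoter peak in either library. With 2.5 kb its values became 3.32 and 2.83, which are those of a peak at the promoter of Kdelr1, a neighbour that encodes a receptor for proteins of the endoplasmic reticulum. The site shown holds 2 GC boxes, at positions 223 to 228 and 244 to 249, neither in a footprint.

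Grin2c (chr11:115249169-115267243) and Grin3b (chr10:79970715-79977190) had no peak of either library anywhere in the gene body. For Grin2c the nearest peak lay 3.44 kb upstream of the start, inside an intron of Fdxr, the gene of a mitochondrial reductase. It was called at the same coordinates in both libraries, with values of 2.08 and 1.86. At the far edge of the window the Fdxr promoter had peaks of 8.23 in replicate 1 and 3.51 in replicate 2, which lay side by side without overlapping and so count as unshared. For Grin3b all 5 peaks of each library lay beyond the gene's 3′ end, at and after the promoter of Tmem259, the highest at 7.52 and 3.82. In the same libraries the cerebellar granule cell markers had a promoter peak in both in 2 of 6 genes (Cbln1 and Cbln3). The motor neuron markers had one in 1 of 5 (Lhx3), beside 59.0% of all protein-coding genes. Replicate 1 alone had one at 1 more cerebellar and 2 more motor neuron markers.

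**Figure D1:**
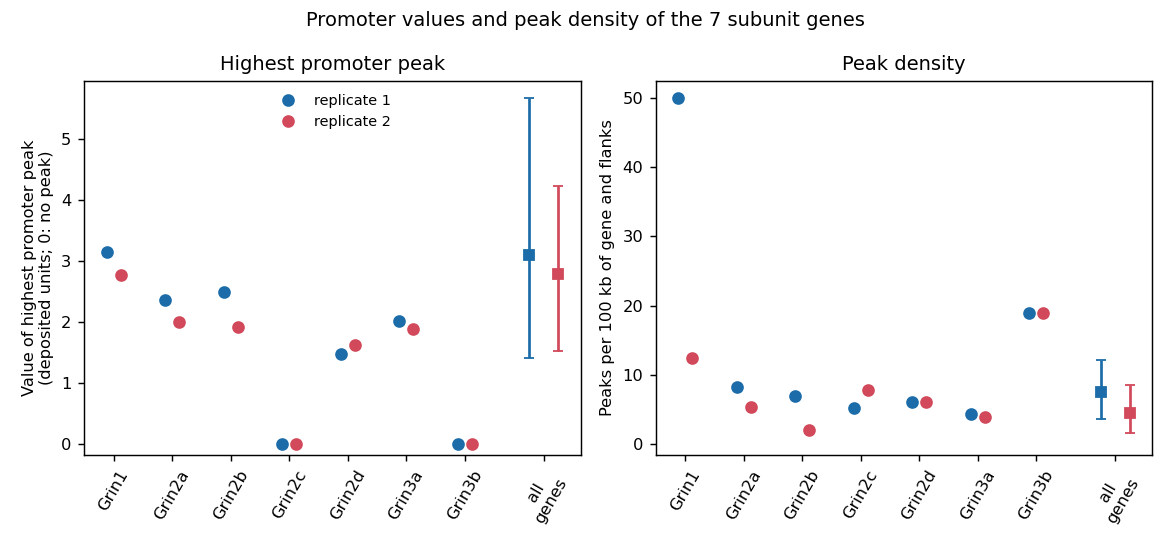
Left, the value of the highest promoter peak of each subunit gene in replicate 1 (blue) and replicate 2 (red), with 0 for no peak; right, peaks per 100 kb of gene and flanks. Squares with bars are the median and quartiles over all protein-coding genes (left, those with a promoter peak). Grin1 stood highest on the left at 3.14 and 2.78, and its density of 49.99 in replicate 1 stood far from the 12.5 in replicate 2.

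Several genes of the family have more than 1 start. Starts within 500 bp of each other were grouped, which gave 20 groups over the 7 genes. Of these, 11 had a peak within 1 kb in replicate 1, 8 in replicate 2 and 8 in both. Of the 14 groups with a protein-coding transcript 7 had a peak in both. A peak near more than 1 group counted for each, as the highest promoter peaks of Grin2a and Grin2b did. With a window of 500 bp 6 groups had a peak in both libraries. The share over the start groups of all genes was not computed. At Grin2a 3 of 4 groups were accessible in both libraries, and the peaks there were spread along the first exons and introns rather than gathered at 1 point. In replicate 1 the innermost of the 3 rested on 1 peak, centred 0.958 kb upstream of its start. The highest peak, at the first start, had values of 2.36 and 2.00. The other 3 shared regions of the promoter had 1.203 and 1.29, 1.51 and 1.83, and 0.999 and 1.30, from the outermost inward. The remaining group of Grin2a, deep in intron 3, had no peak. Grin2b had 2 start groups, and its highest promoter peak did not lie at the first: the values were 1.64 and 1.496 just upstream of the gene, 1.73 and 0.887 at the first exon, and 2.48 and 1.91 in intron 1, 0.412 kb upstream of the start of the transcript Grin2b-206. At Grin1 the internal start groups had peaks in replicate 1 alone, at most 0.601. Grin2d had a peak at 1 of 3 groups, Grin3a at 1 of 2, and Grin2c and Grin3b at 0 of 2 and 0 of 3.

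Over the whole regions, replicate 1 had 114 peaks and replicate 2 had 60. Overlapping peaks of both libraries were merged into shared regions, 42 in all, of which 23 lay at no protein-coding promoter and are called distal. Of the replicate 1 peaks 39.5% (95% Wilson interval 31.0 to 48.6, counting error only) had a partner in replicate 2, and of the replicate 2 peaks 73.3% (61.0 to 82.9) had one in replicate 1. The share over all peaks, 46.6%, lay inside the first interval, and that of 83.4% lay just above the second. At least 1 distal shared region was found at 6 of the 7 genes, all but Grin2d, against 52.1% of all protein-coding genes; that share was not matched for gene length, and 3 of the 7 genes, Grin2a, Grin2b and Grin3a, have regions in the longest of 10 groups of genes by length.

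**Figure D2:**
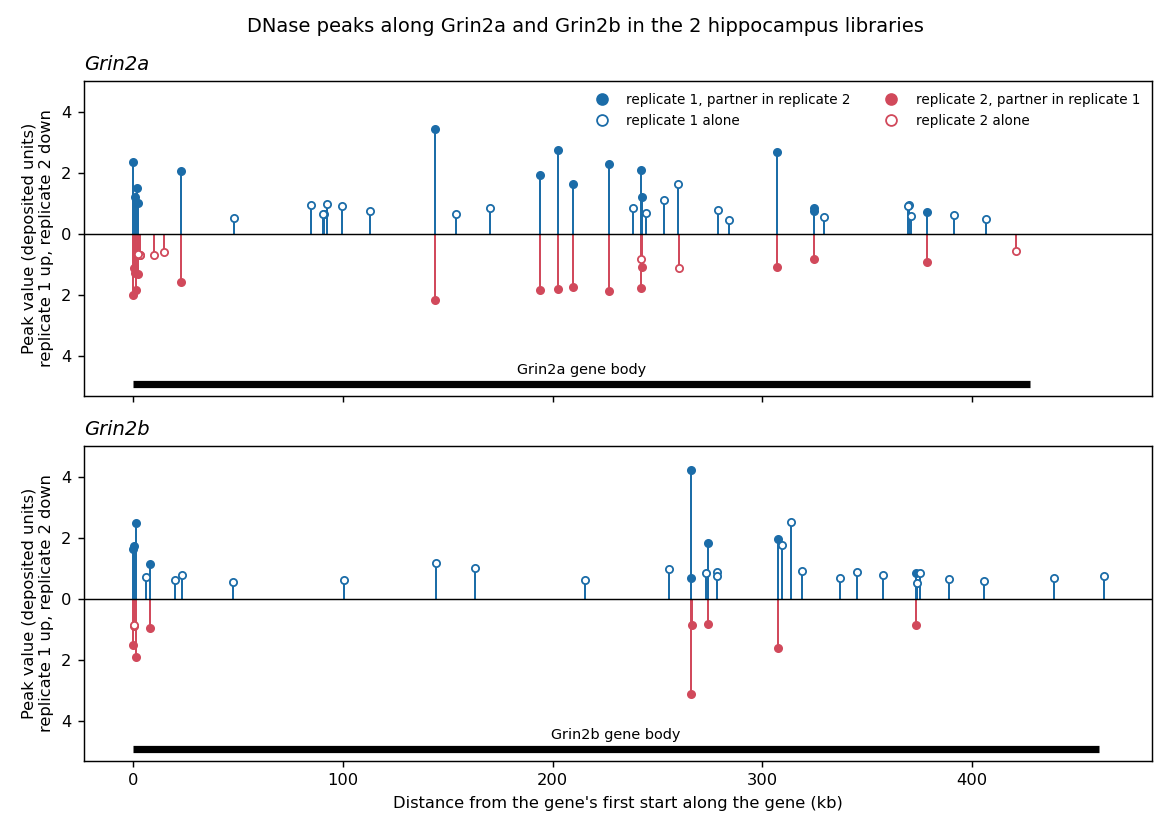
Peaks along Grin2a (top) and Grin2b (bottom) by distance from the first start, with the deposited peak value of replicate 1 upward in blue and of replicate 2 downward in red. Filled points have a partner in the other library. Of the 11 distal shared regions of Grin2a 1 lies at 19.6 kb and the others from 140.8 to 375.5 kb, while 4 of the 6 of Grin2b lie between 264.2 and 305.9 kb (distances to the nearest start).

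Grin2a held the largest number of shared regions, 15, from 37 peaks in replicate 1 and 24 in replicate 2. It had 4 of them at its promoter and 11 distal, all inside introns of the gene. Intron 3, 230.1 kb long and 53.9% of the longest transcript, had 15 peaks in replicate 1, 9 in replicate 2 and 6 shared regions. Introns 4 and 5 had 2 shared regions each, and intron 11 had 1. The highest, 140.8 kb from the nearest start, had values of 3.43 and 2.17, and the next, at 199.4 kb, 2.76 and 1.82. In replicate 1 both were higher than the gene's promoter, and in replicate 2 only the first was. A site in intron 5 had the most unequal pair of values, 2.66 and 1.09. The other 8 distal regions ran from 0.716 to 2.29 in replicate 1 and from 0.825 to 1.86 in replicate 2.

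Grin2b, a gene of similar length, had 33 peaks in replicate 1 but 10 in replicate 2, and 9 shared regions, 3 at the promoter and 6 distal. Its shared regions numbered 4 in the shorter lists and 4 at a reciprocal overlap of 50%, where those of Grin2a numbered 12 and 11. Of the 6, 4 lay in intron 4, which is 79.7 kb long, and 1 each in introns 2 and 5. Introns 2 and 3, 127.1 and 120.4 kb long, had 6 and 3 peaks in replicate 1 and 1 and 0 in replicate 2. The intron 4 site shown had the highest value of all distal regions in the family, 4.21 in replicate 1 and 3.11 in replicate 2, above the Grin2b promoter in both libraries. It stood at the 95.9th percentile of all peaks of replicate 1 and the 91.5th of replicate 2. Within the same intron, a peak of 1.95 and 1.60 lay 305.9 kb from the start and one of 1.81 and 0.825 at 272.5 kb.

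Some high Grin2b peaks were in replicate 1 alone. The peak at chr6:135859581-135859780 in intron 4 had a value of 2.53 and 5 footprints and no partner, although 39 of its bases were listed at an FDR of 0.05 or less in replicate 2. Its neighbour at chr6:135864041-135864320 had 1.77 and 5 footprints, and no base of it was listed in replicate 2. Of the 24 Grin2b peaks of replicate 1 without a partner, 2 had any listed base in replicate 2. At Grin2a 3 of 21 did, and over all 7 genes 7 of 69. The share over all replicate 1 peaks without a partner was not computed. Subunit peaks also held listed bases in their own library, so the 2 kinds of list are not independent.

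Per 100 kb of gene and flanks, Grin2a had 8.27 peaks in replicate 1, 5.36 in replicate 2 and 3.35 shared regions, and Grin2b had 6.87, 2.08 and 1.87. The medians over all protein-coding genes were 7.53, 4.47 and 3.84. Among genes in the same length group, Grin2a was at the 74.4th percentile in replicate 1 and the 83.4th in replicate 2, and Grin2b at the 59.1st and 26.4th. Grin2a was denser than Grin2b in both libraries, and the gap was wider in replicate 2.

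**Figure D3:**
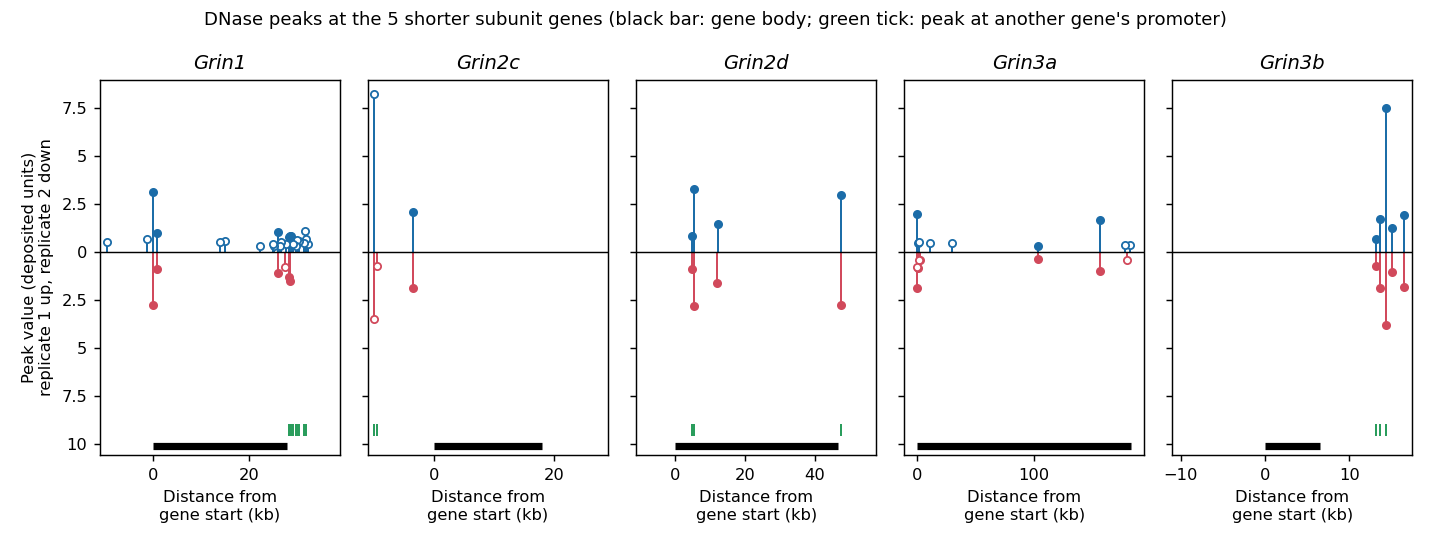
Peaks at the 5 shorter genes by distance from the gene start, drawn as for the long genes (replicate 1 up in blue, replicate 2 down in red, filled where the other library has a partner). Black bars are gene bodies and green ticks mark peaks at another gene's promoter. The bodies of Grin2c and Grin3b hold no peak, and the small peaks at the 3′ end of Grin1 are mostly in replicate 1 alone.

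At Grin1 the libraries differed in their number of peaks. Replicate 1 had 24 peaks in its region and replicate 2 had 6, or 49.99 and 12.5 per 100 kb, the 99.9th and 87.1st percentiles of all protein-coding genes. Away from the start, the replicate 1 peaks were low, from 0.318 to 1.09, and crowded at the 3′ end of the gene, over Tmem210, Lrrc26 and the antisense gene Grin1os. At another gene's promoter alone lay 10 of the 24. With equal numbers of peaks from each library, Grin1 had 10 and 6. None of the 18 replicate 1 peaks without a partner had a base listed in replicate 2, beside 7 of 69 over the 7 genes. The share over all such peaks was not computed. The shared regions numbered 4: the promoter, a region in intron 1 with 1.01 and 0.877, 1 in intron 18 with 1.06 and 1.09, and 1 at the promoter of Lrrc26 with 0.831 and 1.49.

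Grin3a had 9 peaks in replicate 1 and 8 in replicate 2 over 204.1 kb, or 4.41 and 3.92 per 100 kb, below the median of all genes in each library; among genes in the same length group it was at the 29.0th and the 64.0th percentile. Its shared regions were 2 at the promoter and 2 distal, and 2 in all in the shorter lists and with equal numbers of peaks. The intron 6 site shown, 156.7 kb from the start, had 1.70 and 1.00, and the site in intron 3 had 0.327 and 0.341, the lowest shared values of the family. Grin2d had 4 peaks in each library and 4 shared regions, and 3 of the 4 lay within 1 kb of a start of Grwd1 or Kdelr1. The 2 regions at Kdelr1 also lie inside the Grin2d gene body, 2.35 and 2.95 kb from a Grin2d start.

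The adult subunits Grin2a, Grin2c and Grin3b had 21 shared regions in 512.2 kb, and the juvenile subunits Grin2b, Grin2d and Grin3a had 17 in 750.9 kb. Per 100 kb this was 4.10 against 2.26 shared regions, 8.59 against 6.13 peaks in replicate 1 and 6.25 against 2.93 in replicate 2. At promoters, 1 of 3 adult subunits and 3 of 3 juvenile ones had a peak in both libraries, beside the 59.0% of all genes; with a window of 500 bp Grin2d had none, which leaves 2 of 3 juvenile subunits. Of the 21 adult regions 15 were at Grin2a, 5 lay downstream of Grin3b and 1 upstream of Grin2c. By gene the order was mixed. Shared regions per 100 kb were 3.35 at Grin2a, 2.63 at Grin2c and 18.9 at Grin3b. They were 1.87 at Grin2b, 6.02 at Grin2d and 1.96 at Grin3a. Within the gene bodies alone, where every adult region was at Grin2a, the densities of the classes were 3.32 and 2.17. Without peaks at other genes' promoters they were 3.51 and 1.86. Each class is 3 genes that differ in length and neighbours, so these are values side by side, with no test.

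**Figure D4:**
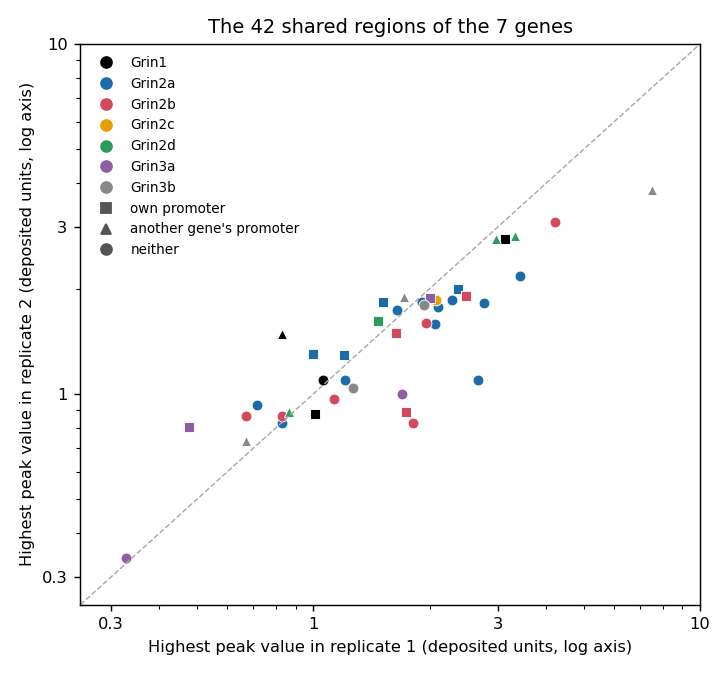
The 42 shared regions, with the highest peak value in replicate 1 and replicate 2 on log axes; colours are genes, squares the gene's own promoter, triangles another gene's promoter and circles neither, and the dashed line marks equal values. Values were lower in replicate 2 in 27 of the 42. The highest circle is the Grin2b intron 4 site at 4.21 and 3.11.

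Among the 42 shared regions the value was lower in replicate 2 in 27 (64.3%), with a median ratio of replicate 2 to replicate 1 of 0.909 and a range from 0.411 to 1.79. Over all 58484 shared regions 67.3% were lower, with a median of 0.847. The ratios rest on the authors' scaling of each library. The median at the subunit genes lay within the quartiles of all shared regions, 0.660 and 1.09.

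The deposited lists held 216 footprints in the 7 regions in replicate 1 and 108 in replicate 2, of which 189 and 82 lay in a peak. Of all those in the 7 regions 22.7% (17.6 to 28.7) in replicate 1 and 46.3% (37.2 to 55.7) in replicate 2 overlapped one of the other library, beside 25.8% and 52.0% of all footprints. Footprints per kb of peak were 8.49 and 6.47, against 8.64 and 7.56 over all peaks. The share of all footprints lay inside the interval at the subunit genes in each library.

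Footprints of both libraries met at some of the sites shown. At the Grin2b intron 4 site a footprint of 30 bases in replicate 1, positions 147 to 176, and one of 28 bases in replicate 2, positions 147 to 174, covered nearly the same bases. A second pair met at positions 215 to 220, so that 34 of the 260 bases were in footprints of both. At the Grin2c upstream site positions 83 to 99 were in a footprint of each library, of 23 bases in replicate 1 and 17 in replicate 2, and others met at positions 68 to 74 and 101 to 105, 29 bases in all. The second Grin2a site had 7 bases in footprints of both libraries, positions 112 to 118, and the first Grin2a site had 4 footprints in replicate 1 and none in replicate 2. At the Grin3a site a footprint of 31 bases was found in replicate 1, positions 151 to 181, and only its edge met one of replicate 2.

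Motifs were searched on both strands as strings of letters: the Sp/KLF GC box GGGCGG, the Egr site GCGNGGGCG, the NRF1 site CGCNTGCGC, the cyclic AMP response element TGACGTCA, the AP-1 site TGANTCA, the MEF2 site CTAAAAATA, the Neurod E-box CAGATG, and the RE1, CTCF and full NFI sites by name. The GC box lies partly within the Egr string, so the 2 can share letters. In the middle 200 bp of the 42 shared regions the GC box was found in 12 (28.6%, against 22.7% of all 58484 shared regions), the E-box in 6 (14.3% against 24.3%), AP-1 in 4 (9.52% against 7.94%), CTCF in 2 (4.76% against 6.66%) and Egr in 1, at the Grin1 promoter (2.38% against 3.11%). No match was found for NRF1, the cyclic AMP response element, MEF2, RE1 or NFI, which 3.72%, 1.09%, 0.503%, 0.226% and 0.639% of all shared regions held. Most of these shares are near those of all regions, and that of the E-box was the furthest from it. Among the 23 distal regions 5 held the E-box, against 31.3% of all distal shared regions. The differences were not tested, and a match is a string of letters and not a measured binding site.

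By place, all 4 AP-1 matches were distal: 1 in intron 18 of Grin1, 1 in intron 4 of Grin2b and 1 at each Grin2a site shown, at positions 98 to 104 and 99 to 105, with 2 and 0 bases in a footprint. They were thus in 4 of the 23 distal regions, and of all distal shared regions 10.2% held one. The Grin3a site held the CTCF string on the strand opposite to the one printed, at positions 166 to 177, all 12 bases inside the long footprint of replicate 1. The other CTCF match was in intron 18 of Grin1. At the Grin2c site the closest stretch, positions 89 to 100, had 1 mismatch to the CTCF string and lay within footprints along all 12 bases. Of all shared regions 18.8% came within 1 mismatch, and of the distal ones 23.9%. Of the 42 shared regions at the subunit genes 3 (7.14%) did. This measure was added after the sequence was seen. The Grin2b intron 4 site held none of the strings, and neither did the Grin1 promoter bases shown. The Egr and GC box matches in the shared region at the Grin1 promoter lay at least partly after the start, in bases not shown.

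Of the 7 subunit promoters 4, those of Grin1, Grin2c, Grin2d and Grin3b, were matched among RefSeq's promoters on GRCm38.p6, 300 bases around each start; Grin2a, Grin2b and Grin3a were not. Grin1 held the GC box and the Egr string there, Grin2c the GC box, Grin3b the AP-1 string and the E-box, and Grin2d none of the strings searched. Of all 32851 such promoters 35.7% held the GC box, 5.55% the Egr string, 7.81% AP-1 and 17.2% the E-box. Grin1 with a peak and Grin2c without one thus both held the GC box.

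The AMPA and kainate receptor genes were read in the same way. All 4 AMPA receptor subunit genes, which carry fast transmission, had promoter peaks in both libraries, led by Gria2 at 3.73 and 3.58 and Gria1 at 2.01 and 1.77. Of the 5 kainate receptor genes 4 did, led by Grik4 at 2.66 and 2.37 and Grik2 at 2.503 and 2.497, and Grik1 had a peak of 0.433 in replicate 1 alone. The counts were thus 4 of 4 and 4 of 5 for these families and 5 of 7 for the NMDA subunits, beside the 59.0% of all genes, and the differences were not tested. All 24 genes of proteins that anchor NMDA receptors or act next to them, such as scaffolds and kinases, had a peak at the promoter in both libraries, led by Ppp3ca, the calcineurin catalytic subunit, at 11.1 and 9.01, and Dlg2, the scaffold PSD-93, at 10.7 and 6.75. Every NMDA subunit promoter lay below those of Ppp3ca and Dlg2. Not all of the 24 were higher than the subunits: Nos1, the lowest, had 0.884 and 1.00, below every subunit promoter with a peak.

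The genes most like 3 of the subunits were sought by 4 percentile ranks, the promoter value and the peak density in each library, among protein-coding genes with a region of 0.5 to 2 times the length. Nearest to Grin2b were Erc2, an active zone scaffold, and Dennd1a, at distances of 3.72 and 4.57 percentile units among 807 genes whose median distance was 31.3. Nearest to Grin2a were Prkcb, a protein kinase C, and Tanc1, a postsynaptic scaffold, at 6.11 and 6.31 among 890 genes with a median of 37.7. Nearest to Grin1 were Ggnbp1 and Matk, at 5.09 and 5.21 among 15267 genes with a median of 72.6. The ranks come from the same 2 libraries, and a small distance says only that the 4 percentile ranks were alike. The values behind them can differ. In replicate 1 Grin1 had 49.99 peaks per 100 kb, against 22.7 at Ggnbp1 and 23.0 at Matk, at percentiles of 99.9, 95.1 and 95.3.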

How the data were processed

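DNase-seq peaks, footprints and base FDR lists were deposited by the authors per library on mm10 (GRCm38), per the labels and the descriptions deposited with the files. What aligner and callers made them was not given in the sources used here. The signal of each peak is the authors' deposited value. Below 1, 100% of the values were whole multiples of a smallest step (tolerance 0.05 steps), which shows scaling by library. The deposited q-values (FDR) list only bases at 0.05 or less; the value deposited with footprints was 0.01 on every line and was not used. The longer peak lists were used.

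Overlap meant at least 1 bp. Distal means no overlap with the 1 kb on either side of a protein-coding start. Footprints were assigned by their middle. Shares carry 95% Wilson intervals. Percentiles are descriptions over genes. All 7 members were named, though not every value of each is printed. From other lists the 2 genes of highest mean promoter value were named, with Grik1, Cbln1, Cbln3, Lhx3 and Nos1 chosen after their values were seen. Part of the lists is not reported here. Members and lists were chosen with earlier results of these data known. Procedures were tested on simulated data. How reads of the CAST/EiJ allele were placed on the C57BL/6J assembly was not given in the sources used here. Alternatives were the shorter peak lists, equal numbers of peaks, a promoter window of 500 bp or of 2.5 kb, no flank or one of 50 kb, a reciprocal overlap of 50%, leaving out peaks at neighbours' promoters and leaving out each replicate. The tools were Python 3.11.15, NumPy 2.4.6, pandas 2.3.3, pysam 0.24.0 and matplotlib 3.10.9.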

Additional observations from a re-analysis of the deposited data

How the results depend on the processing

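With 2 libraries of 1 group the precision is limited to the spread between them, the peak scale is not stated and read depth is unknown, so a missing peak is one not called at that depth. The count of subunit genes with a promoter peak in both libraries was 5 under the shorter lists, equal numbers and with either replicate alone, and 4 with a window of 500 bp. Of 69 alternative values for the main results 50 stayed within 1.5 times or the interval and 19 moved. Subunit peaks numbered 65 and 35 in the shorter lists of replicates 1 and 2, and 174 and 103 with flanks of 50 kb, where footprints counted peak by peak rose from 193 and 85 to 335 and 160 and their shared share to 29.9% and 58.4%. The partner share of replicate 1 was 53.1% with equal numbers of peaks; at a reciprocal overlap of 50% it was 25.4%, that of replicate 2 was 48.3%, and the shared share of footprints was 16.2% and 33.3%. Juvenile shared regions per 100 kb were 1.199 in the shorter lists and 1.33 at a reciprocal overlap of 50%. With 1 replicate left out, where every peak of the other counts, the family's value per 100 kb was 4.58 to 8.70 (3.20 with both), the adult value 6.25 to 8.59 and the juvenile value 2.93 to 6.13. Leaving out a replicate gives no partner share. In every alternative run the pooled adult value per 100 kb was above the juvenile one. These runs reuse the same few genes, and gene by gene the order was mixed in the main run. With equal numbers of peaks Grin1 had 10 peaks in replicate 1, against 24. No paired analysis was possible because the labels give only 1 group.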
